A study of Sus scrofa with 4 samples.

Results

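FBXO32 and NOS1 were followed at the transcript level in loin muscle (longissimus dorsi, LD) of Laiwu pigs, a Chinese breed known for marbled meat. They are 2 of the 22658 features of the files, matched by symbol to 1 identifier each, and both passed the filter on low counts (a mean of at least 10 counts in any age). The 12 libraries came from wild type, castrated male pigs kept under like conditions, 3 pigs at each of the labelled ages 60, 120, 240 and 400 d, with no other treatment and a different set of animals at each age. Library numbers are names only and do not link pigs across ages. The authors deposited a fragment count and an FPKM value (fragments per kilobase of feature length and per unit of library size, from Cufflinks) for each feature.

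FBXO32, also called atrogin-1 or MAFbx, is the substrate-binding F-box subunit of an SCF ubiquitin ligase, which marks muscle proteins for breakdown by the proteasome. It is a target gene of FoxO transcription factors, which insulin and growth factor signalling through AKT keeps out of the nucleus, and it is a classical marker gene of muscle atrophy. NOS1 encodes neuronal nitric oxide synthase, which makes nitric oxide from arginine and is held at the membrane of muscle fibres by the dystrophin complex.

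The ages attached to these libraries carry a doubt that bears on every direction below. In gene lists published with the data, the values of the libraries labelled 60, 120, 240 and 400 d stand under 240, 400, 120 and 60 d, respectively. The median absolute log2 difference was 0.0198 to 0.0200 for these matches and at least 0.495 for every other pairing. The numbers of mapped reads in the study's sequencing summary, in contrast, track the total counts of the libraries under the labelled ages and not under the ages of those lists. The labelled ages are used here. The libraries form the same 4 groups either way, so tests over the 4 ages are the same, but the direction in time of most changes between ages is not. Both symbols also stood among the study's most changed genes for the ages it gives to the libraries labelled 60 d and 240 d. For NOS1 the values printed there are close to the means of these libraries, 0.709 and 7.47 FPKM. For FBXO32 they are well below the means of the feature used here, 23.4 and 140.5 FPKM. It is not shown that the FBXO32 listed there is the same feature. Since both symbols were listed for this comparison, values for 60 d to 240 d are given without a test. The pair 120 d to 400 d is the only one that uses none of those libraries. Tests over the 4 ages, and of other pairs with 60 d or 240 d, share libraries with that choice, so their p-values are not independent of it and are given as a description.

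The FBXO32 gene (ENSSSCG00000005981) lies on the plus strand of chromosome 4 from 16638140 to 16674269 in Sscrofa10.2, with a feature length of 7365 bases. NOS1 (ENSSSCG00000009856) lies on the plus strand of chromosome 14 from 37338524 to 37518974, with a feature length of 11187 bases. No other feature of the files overlaps either locus, and the nearest feature is 49744 bases from FBXO32 and 14310 bases from NOS1. Total counts per library were 9713813 to 13325327, and log2 expression of libraries of the same age correlated at an r of 0.894 to 0.950 across 13232 features. Counts were 118 to 13020 for FBXO32 and 32 to 2021 for NOS1, all well above the floor of 3 counts.

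FBXO32 was high in the libraries labelled 240 d and 400 d and low, but variable, in those labelled 60 d and 120 d. At 60 d its FPKM was 2.63, 45.3 and 22.2 in libraries 1, 2 and 3, a mean of 23.4 ± 21.3 (SD, n = 3). At 120 d it was 5.21, 17.9 and 7.88, with a mean of 10.3 ± 6.68 (SD, n = 3). These early libraries overlapped, and the lowest and highest of the 60 d libraries differed 17.2-fold. At 240 d the FPKM was 85.5, 122 and 214, with a mean of 140.5 ± 66.4 (SD, n = 3). At 400 d it was 86.7, 92.0 and 85.4, with a mean of 88.0 ± 3.47 (SD, n = 3). Each of the 6 libraries of 240 d and 400 d lay above each of the 6 of 60 d and 120 d, an order that 5.63% of all 13314 tested features shared. This division was made after the values were seen, and part of it was used to choose the gene, so nothing is read from that share. The 400 d libraries were the most alike, with a coefficient of variation of 3.94%, compared with 91.3% at 60 d. By mean FPKM, FBXO32 ranked 448 among all features at 240 d and 4013 at 120 d. In the order of mean FPKM (240 d, 400 d, 60 d, 120 d), the neighbours 240 d and 400 d overlapped, as did 60 d and 120 d, while 400 d and 60 d did not.

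NOS1 was expressed at a much lower level and was also high in all libraries labelled 240 d and 400 d. At 60 d its FPKM was 0.287, 0.625 and 1.21, a mean of 0.709 ± 0.469 (SD, n = 3). At 120 d it was 5.46, 1.06 and 0.644, with a mean of 2.39 ± 2.67 (SD, n = 3). Library 1 of 120 d stood apart from the other two of its age and fell within the range of the later libraries. At 240 d the FPKM was 4.19, 6.09 and 12.1, with a mean of 7.47 ± 4.14 (SD, n = 3). At 400 d it was 3.88, 4.25 and 4.71, with a mean of 4.28 ± 0.418 (SD, n = 3). All libraries of 240 d were above all 3 of 60 d, as for 14.4% of features, and so were all of 400 d, as for 18.1%. The pair of 60 d and 240 d was used to choose the gene, so nothing is read from its share. With 120 d the libraries of 240 d and 400 d overlapped through library 1 of 120 d. In the order of mean FPKM (240 d, 400 d, 120 d, 60 d), each pair of neighbours overlapped. NOS1 ranked 4986 by mean FPKM at 240 d and 12280 at 60 d.

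**Figure D1:**
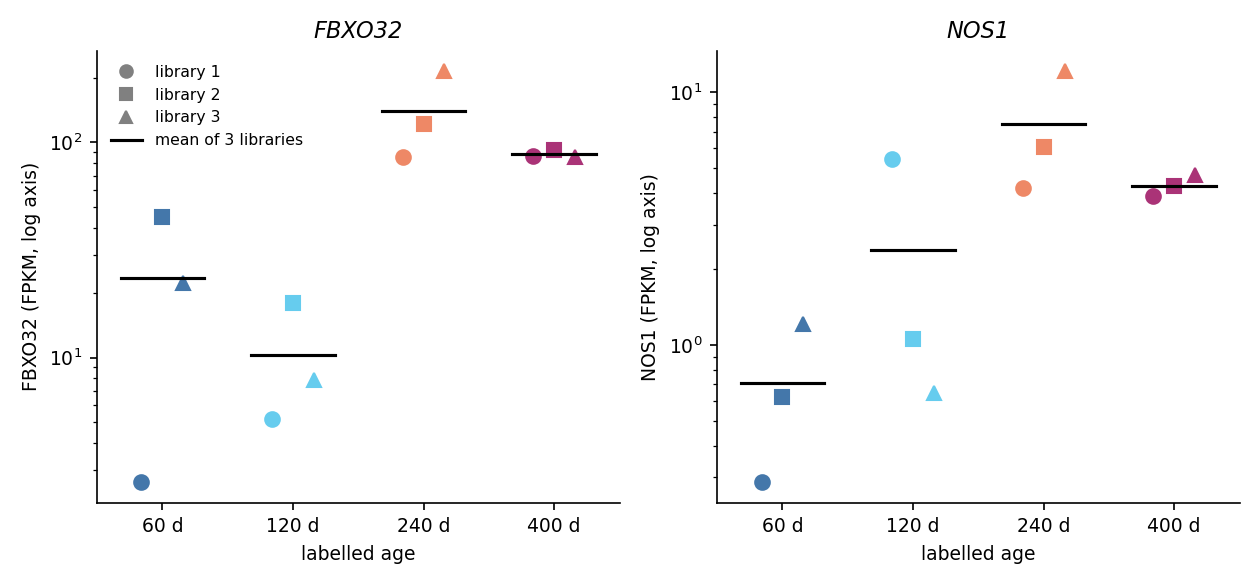
FPKM of FBXO32 (left) and NOS1 (right) in each of the 12 libraries on log axes, by labelled age, with library numbers as marker shapes and the mean of 3 libraries as a line. All FBXO32 points of 240 d and 400 d lie above those of 60 d and 120 d, while for NOS1 library 1 of 120 d (5.46 FPKM) lies among the later libraries.

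Age was tested in edgeR (quasi-likelihood test) by fitting the counts of all 12 libraries together, with p-values adjusted by the Benjamini-Hochberg method over the 13314 features tested. Neither gene passed the threshold of 0.01 for an effect of age, which 3.93% of features passed. The adjusted p was 0.0127 for FBXO32 and 0.0315 for NOS1, so both were below 0.05, as were 19.8% of features. The likelihood ratio test of DESeq2 gave adjusted p of 0.000144 for FBXO32 and 0.00595 for NOS1, and called 20.2% of features at 0.01. In exact permutation tests of the F statistic of log2 FPKM over all 15400 divisions of the libraries into 4 groups of 3, the two-sided p was 0.0207 for FBXO32 and 0.0208 for NOS1 (0.0313 for each when adjusted over 3 such tests). The libraries behind these values varied widely within an age: the residual SD of log2 FPKM was 1.21 for FBXO32 and 1.04 for NOS1.

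Single libraries moved these tests. Without library 1 of 60 d, which held the lowest FBXO32 level, the edgeR adjusted p of FBXO32 was 0.00485, and without library 1 of 120 d that of NOS1 was 0.00758. Over all 12 omissions the edgeR adjusted p ran from 0.00485 to 0.0322 for FBXO32, never above 0.05, and from 0.00758 to 0.0773 for NOS1, above 0.05 in 7 of 12 (any library of 400 d, library 1 or 2 of 60 d, or library 2 or 3 of 240 d).

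From 120 d to 400 d, the pair that compares no library of the earlier choice of the genes, FBXO32 was higher at 400 d. The log2 difference was 3.23 ± 0.74 (edgeR, SE), with an adjusted p of 0.0197 that rests on the spread in all 12 libraries. At an adjusted p of 0.05 and an absolute log2 change of 1 this difference was among the 1.86% of features called higher, and at 0.01, which 0.383% of features passed, it was not. In a separate edgeR fit of these 2 ages the FBXO32 difference was 3.22, with an adjusted p of 0.0122. In the fit of all ages, leaving out library 1 of 60 d brought the edgeR adjusted p to 0.00523. Leaving out library 1 or 3 of 120 d or library 2 of 400 d brought it to between 0.0553 and 0.0675, with log2 differences of 2.91 to 3.11. The NOS1 difference for the same pair was 0.86 ± 0.69 (SE), with an edgeR adjusted p of 0.411. It was not distinguishable from the spread between libraries, and without library 1 of 120 d it was 2.32, with an edgeR adjusted p of 0.0371.

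Between the adjacent ages 120 d and 240 d, FBXO32 was higher at 240 d by 3.80 ± 0.76 on the log2 scale, with an edgeR adjusted p of 0.0280. No feature passed 0.01 in this pair in edgeR (0% called, with 3661 features at an unadjusted p under 0.05, while DESeq2 called 524 or 4.36%), and 1.26% were called higher at 0.05. The NOS1 difference was 1.66 ± 0.70 log2 units, with an edgeR adjusted p of 0.150, and without library 1 of 120 d it was 3.11, with an edgeR adjusted p of 0.0470. The edgeR adjusted p of FBXO32 was above 0.05 after 5 of the 12 omissions (any library of 120 d, or library 2 or 3 of 240 d). The highest, 0.0976 at a log2 difference of 3.27, came without library 3 of 240 d, which held the highest level of both genes.

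From 60 d to 400 d the log2 difference was 2.16 ± 0.71 (SE) for FBXO32 and 2.61 ± 0.74 for NOS1, with edgeR adjusted p of 0.0455 and 0.0262. Both passed 0.05, as did 4.66% of features in the higher direction, and neither passed 0.01, as 2.78% did. The edgeR adjusted p was above 0.05 after 8 of 12 omissions for FBXO32 (up to 0.112, without library 2 of 400 d) and after 4 of 12 for NOS1 (up to 0.0720, without library 1 of 60 d). Without library 1 of 120 d that of NOS1 was 0.00669. From 60 d to 240 d the fitted differences were 2.74 ± 0.73 for FBXO32 and 3.40 ± 0.76 for NOS1, given as a description. In edgeR, 0.526% of features were called higher in this pair at 0.01, and nothing is read from the 2 genes there.

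In the remaining adjacent pairs neither gene passed an adjusted p of 0.05. From 60 d to 120 d the log2 difference was -1.06 ± 0.69 for FBXO32 and 1.75 ± 0.72 for NOS1, with edgeR adjusted p of 0.641 and 0.444. Before adjustment the edgeR p of NOS1 was 0.0323, while its exact permutation p in this pair was 0.4. From 240 d to 400 d it was -0.58 ± 0.68 for FBXO32 and -0.80 ± 0.68 for NOS1, with edgeR adjusted p of 0.842 and 0.767. No feature was called by edgeR in either pair at 0.01 or at 0.05 (0%). These pairs had 1384 and 1176 features at an unadjusted p under 0.05, and DESeq2 called 17 (0.18%) and 24 (0.262%). In exact permutation tests of 3 against 3 libraries, no pair can go below p = 0.1. That smallest p was reached for FBXO32 from 120 d to 240 d, 60 d to 400 d and 120 d to 400 d, where 16.7%, 18.1% and 18.6% of features had no overlap in the higher direction, and for NOS1 from 60 d to 400 d.

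**Figure D2:**
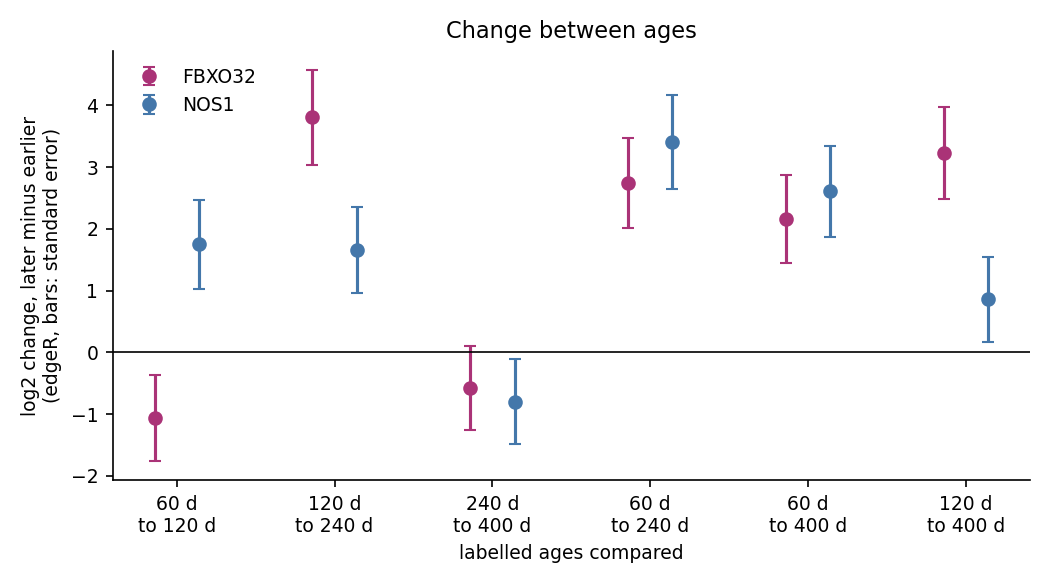
Log2 change of FBXO32 and NOS1 between each pair of labelled ages (later minus earlier), with bars for the standard error, from the edgeR fit of all 12 libraries. FBXO32 has its highest value from 120 d to 240 d (3.80) and NOS1 from 60 d to 240 d (3.40), and both lie below 0 from 240 d to 400 d.

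Per length of transcript, FBXO32 exceeded NOS1 in all libraries but 1. The ratio of their FPKM values was 20.4, 19.98 and 17.7 at 240 d and 22.4, 21.6 and 18.1 at 400 d. These later libraries held nearly 1 ratio, although their FBXO32 levels ran from 85.4 to 214 FPKM. At 60 d the ratio was 9.19, 72.4 and 18.3, and at 120 d it was 0.953, 16.8 and 12.2. The value near 1 belonged to library 1 of 120 d, where low FBXO32 met high NOS1, and the value of 72.4 to library 2 of 60 d. Over the 4 ages the test of the log2 ratio gave p = 0.285 (exact permutation test of the F statistic). Taken by pairs, the ratio was higher at 240 d than at 120 d by 1.73 ± 1.31 (SE) on the log2 scale and at 400 d than at 120 d by 1.83 ± 1.31, without overlap, and both pairs reached the smallest exact permutation p of 0.1. Cufflinks' FPKM was 1.43 to 1.91 times the library-scaled count per kilobase for FBXO32 and 0.789 to 0.978 times for NOS1, so the ratio of counts per length is lower, at 9.79 to 10.7 at 240 d and 9.27 to 13.7 at 400 d.

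The libraries fell into an early and a late cluster for FBXO32, so no test was made of a correlation over all 12. Within the 6 libraries of 240 d and 400 d, Pearson's r of log2 FPKM was 0.98 (exact permutation p = 0.0222, 0.0667 adjusted over 3 relations) and Spearman's rho was 0.60 (exact permutation p = 0.242). Without the 2 libraries farthest from the median r was -0.15, so the relation rests on libraries 2 and 3 of 240 d. Within the 6 libraries of 60 d and 120 d, r was 0.03 (exact permutation p = 0.953), rho was 0.09 (exact permutation p = 0.919) and r without the 2 farthest libraries was -0.53. For deviations from the age means over 12 libraries, r was 0.26 (exact permutation p = 0.549), rho was 0.34 (exact permutation p = 0.429) and r without the 2 farthest libraries was -0.02. For these deviations r was 0.77 without library 1 of 120 d (exact permutation p = 0.106) and -0.26 without library 1 of 60 d (exact permutation p = 0.715), so its sign rests on single libraries.

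**Figure D3:**
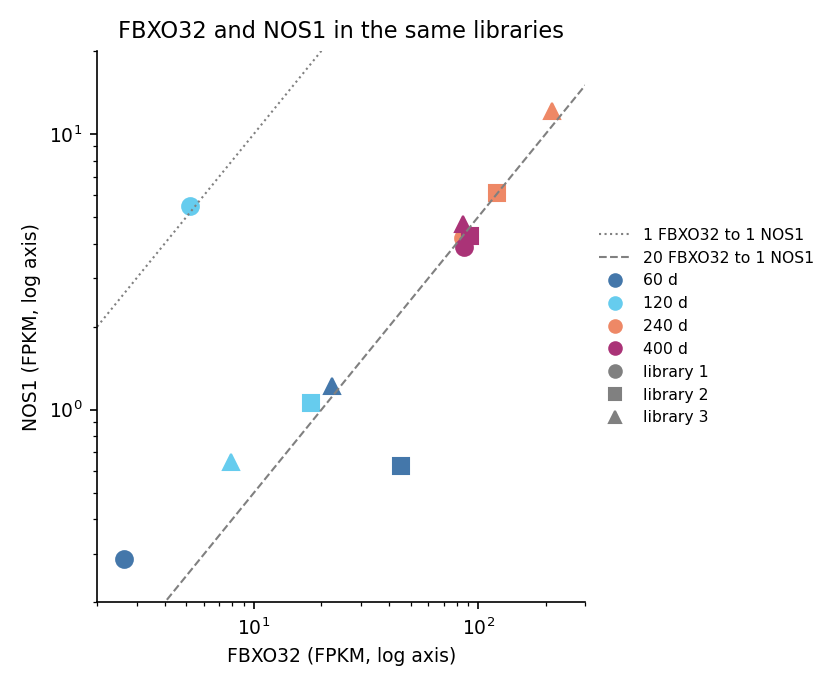
NOS1 against FBXO32 in each of the 12 libraries, FPKM on log axes, coloured by labelled age, with lines for ratios of 1 and 20. The 6 libraries of 240 d and 400 d lie close to the line of 20, whereas library 1 of 120 d lies near the line of 1.

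Markers of other cell types were read beside these levels, since in whole muscle fewer cells of a type and less RNA per cell cannot be told apart. Of 12 listed skeletal muscle fibre markers, 6 were found. The summed CPM (counts scaled to a common library total) of 5 of them was 36796 to 48189 over the 12 libraries. ACTA1, skeletal muscle actin, was left out of this sum. It was listed at 0 in 7 libraries and took 5.64% to 8.57% of all counts in the other 5, which were library 2 of 120 d, all of 240 d and library 3 of 400 d. Its part in the results was not tested. The sum of the 5 hides single genes. Chosen after its values were seen, MYBPC1 had an edgeR adjusted p for age of 0.00718. It was higher at 400 d than at 120 d by 0.94 ± 0.23 (log2, SE, edgeR adjusted p = 0.0261). In that pair the log2 changes of DES, PYGM, MYBPC2 and MB were 0.38, 0.21, -0.03 and -0.34. The feature named MB had at most 241 counts in a library. Fibroblast markers (5 of 6 found) summed to 2828 to 9303 CPM at 60 d and to 757 to 2239 at 400 d. At 120 d and 240 d they were 4541 to 7442 and 1938 to 3387, so the sums of both late ages lay below those of 120 d, where FBXO32 was lowest. The highest fibroblast and blood sums (9303 and 513) belonged to library 1 of 60 d, the library with the least FBXO32 and the least NOS1. Nerve and glia markers (5 of 7 found) summed to 71.8 to 99.0, 40.3 to 57.4, 18.9 to 59.4 and 13.4 to 48.4 CPM at 60, 120, 240 and 400 d. They were highest at 60 d, where NOS1 was lowest, but library 3 of 240 d, with the most NOS1, had 59.4, above all 120 d libraries. The neuronal marker SNAP25 had no count in any library. Leukocyte markers summed to 30.5 to 32.8, 30.3 to 121.5, 14.4 to 33.7 and 6.40 to 21.5 at these ages, so from 120 d to 400 d they were lower without overlap, as the fibroblast sums were, where FBXO32 was higher. Satellite cell and smooth muscle sums were also lower without overlap in that pair, at 48.8 to 52.2 against 26.6 to 28.4 and at 332 to 434 against 174 to 231, as were endothelial sums, at 218 to 341 against 101 to 203. At 60 d and 240 d these 3 lists summed to 39.8 to 53.0 and 21.9 to 44.3, 393 to 553 and 228 to 423, and 176 to 442 and 186 to 316. Fat cell sums overlapped between all ages, at 20.9 to 147, 33.8 to 76.4, 75.0 to 141 and 22.6 to 96.8. Blood sums were 97.5 to 513, 17.7 to 106, 60.4 to 147 and 26.7 to 47.7. The part of these cell types in the results was not tested.

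Genes around FBXO32 and NOS1 were read from 9 lists of 119 genes, of which 88 were found by symbol and 84 were tested. An effect of age passed an edgeR adjusted p of 0.01 in 6 of the 84 (7.14%) and 0.05 in 28 (33.3%), beside 3.93% and 19.8% of all features. In 9 of the 84 all libraries of 240 d and 400 d lay above all of 60 d and 120 d, as in FBXO32, and in 5 they lay below (5.63% and 6.69% of all features). The lists were read as counts, without a test of a list.

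Of the SCF core in which FBXO32 works, 3 of 10 genes were found and none passed 0.01 for age. CUL1, the cullin scaffold, had a mean FPKM of 15.3 ± 2.68, 14.98 ± 0.989, 30.3 ± 7.25 and 24.6 ± 3.70 (SD, n = 3) at 60, 120, 240 and 400 d. Its levels followed the order seen for FBXO32, with no overlap between early and late libraries and an edgeR adjusted p of 0.0113 for age. CAND1, which exchanges F-box subunits on the cullin, had a mean FPKM of 0.414 ± 0.0809 at 60 d and 0.182 ± 0.0698 at 400 d (SD, n = 3), with an edgeR adjusted p of 0.0924 for age and 0.0262 for that pair. CAND1 was barely detected, with at most 39 counts in a library.

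Among 14 tested muscle ubiquitin ligases, 2 had an age effect at 0.01 and 5 at 0.05. FBXO40, a muscle F-box protein that targets IRS1, rose by 2.01 ± 0.35 on the log2 scale from 120 d to 400 d (edgeR adjusted p = 0.00870), from a mean FPKM of 34.1 ± 12.2 to 140.9 ± 12.2 (SD, n = 3). FBXO21, another F-box protein, differed by 0.88 ± 0.20 in that pair, and its edgeR adjusted p for age was 0.00822. From 120 d to 400 d the median log2 change of the 14 ligases was 0.43, beside 0.01 over all features. In this pair the medians of the other lists ran from -0.55 (arginine and cofactor supply) to 0.37 (autophagy and lysosome genes). Chosen after its values were seen, TRIM63 (MuRF1), the ligase most often measured beside FBXO32, had a mean FPKM of 158.8 ± 86.5, 143.8 ± 44.4, 341.1 ± 139 and 235.0 ± 80.3 (SD, n = 3) at 60, 120, 240 and 400 d. Its means had the order of FBXO32 but overlapped between ages, with an edgeR adjusted p for age of 0.114.

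Of 21 tested genes of the FoxO and growth factor axis, which controls FBXO32, ACVR2B and EIF4EBP1 had an age effect at 0.01. ACVR2B, a receptor of myostatin, rose by 1.36 ± 0.21 on the log2 scale from 120 d to 400 d (edgeR adjusted p = 0.00631). EIF4EBP1, a translation repressor controlled by mTOR, fell by 1.35 ± 0.21 from 60 d to 400 d (edgeR adjusted p = 0.00221). Chosen after their values were seen, FOXO1 and FOXO3, the transcription factors that activate FBXO32, had edgeR adjusted p for age of 0.190 and 0.349. Their mean FPKM was 6.20 to 16.6 and 8.87 to 14.6 over the ages, a narrower range than that of FBXO32. IGF1R had at most 3 counts in any library.

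None of the 7 tested autophagy and lysosome genes, a second arm of protein breakdown, passed 0.01 for age, and 4 passed 0.05. SQSTM1, the cargo receptor p62, had a mean FPKM of 213.8 ± 76.0, 192.8 ± 31.3, 627.7 ± 174 and 637.1 ± 338 (SD, n = 3) at 60, 120, 240 and 400 d. Its edgeR adjusted p for age was 0.0124, close to that of FBXO32. CTSL, a lysosomal protease, was lower at the late ages, with a mean FPKM of 2.84 ± 1.84 at 60 d and 0.439 ± 0.207 at 400 d (SD, n = 3, edgeR adjusted p for age of 0.0201).

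Of 5 proteins reported as substrates of FBXO32, only the transcript of MYOD1, a myogenic transcription factor, had an age effect at 0.01 (edgeR adjusted p = 0.00156), and 3 had one at 0.05. Its mean FPKM was 57.8 ± 14.03, 40.6 ± 3.78, 7.48 ± 2.72 and 10.4 ± 3.03 (SD, n = 3) at 60, 120, 240 and 400 d, and it fell by 1.96 ± 0.30 on the log2 scale from 120 d to 400 d (edgeR adjusted p = 0.00732). All its late libraries lay below all its early ones, as in 6.69% of all features, in a division made after the FBXO32 values were seen. MYOG, DES, VIM and PPP3CA overlapped in this division. These are transcript levels, and protein breakdown was not measured.

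Around NOS1, 8 genes of the dystrophin complex were tested and none passed 0.01 for age. SGCB, a sarcoglycan, had a mean FPKM of 45.5 ± 16.5 at 60 d and 108.2 ± 12.0 at 400 d (SD, n = 3, edgeR adjusted p for age of 0.0161). The feature named DMD had at most 10 counts in a library and was not tested.

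Of 12 tested NO synthases and NOS1 partners, DYNLL1 alone had an age effect at 0.01 (edgeR adjusted p = 0.00156), and 3 had one at 0.05. DYNLL1, a dynein light chain first described as a protein inhibitor of NOS1, had a mean FPKM of 163.1 ± 38.6, 141.0 ± 18.8, 34.9 ± 12.2 and 33.8 ± 6.94 (SD, n = 3) at 60, 120, 240 and 400 d. It fell by 2.06 ± 0.27 on the log2 scale from 120 d to 400 d (edgeR adjusted p = 0.00551), and all its late libraries lay below all its early ones. Chosen after their values were seen, the other synthases had their highest means at 60 d and their lowest at 400 d. The endothelial synthase NOS3 had a mean FPKM of 7.12 ± 3.08 at 60 d and 2.67 ± 0.307 at 400 d (SD, n = 3, edgeR adjusted p for age of 0.0249). The inducible synthase NOS2 had 1.71 ± 0.500 and 0.750 ± 0.242 (SD, n = 3, edgeR adjusted p for age of 0.117). By mean FPKM, NOS3 was the highest of the 3 synthases at 60 d and 120 d, and NOS1 was at 240 d and 400 d.

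None of 8 tested genes of arginine and cofactor supply and none of 6 NO response genes passed 0.01 for age in edgeR, while DESeq2 called 3 and 1. ARG2, a mitochondrial arginase that uses the same substrate as NOS1, was lower in each late library (0.481 to 5.32 FPKM) than in each early one (7.54 to 105), with an edgeR adjusted p for age of 0.0141. PRMT1, an arginine methyltransferase, had 89.7 to 114 FPKM in the late and 125 to 252 in the early libraries (edgeR adjusted p for age of 0.0285). PRKG1, the cGMP-dependent kinase downstream of nitric oxide, had 1.62, 9.55 and 40.8 FPKM in the 60 d libraries and at most 4.29 in any later one (edgeR adjusted p for age of 0.0382). GUCY1B1, a subunit of the nitric oxide receptor, had 3.997 to 5.31 FPKM on average (edgeR adjusted p for age of 0.490).

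**Figure D4:**
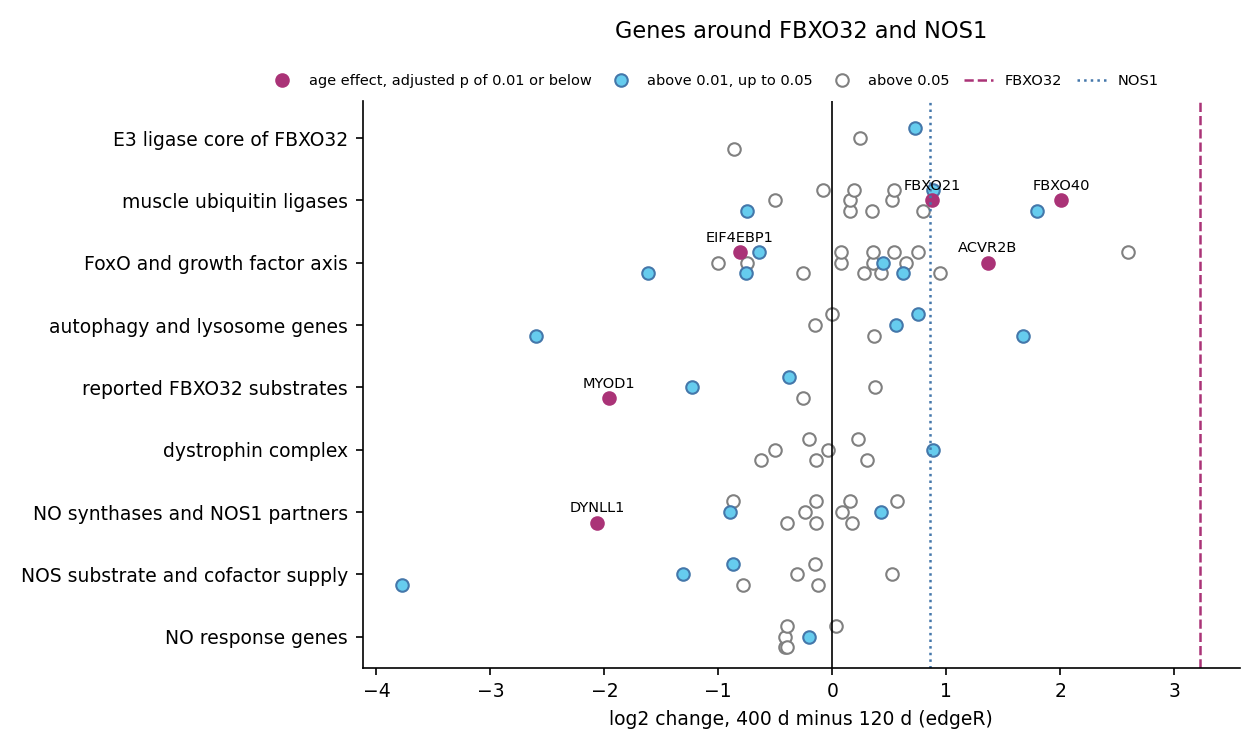
Log2 change from 120 d to 400 d (edgeR) of the 84 tested genes of the 9 lists, filled by their adjusted p for an effect of age, with vertical lines at FBXO32 (3.23, dashed) and NOS1 (0.86, dotted). No listed gene has a higher value than FBXO32, ARG2 lies farthest below 0 (-3.77), and the 6 genes named in the plot are those with an adjusted p of 0.01 or below.

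The features most like each gene were taken by Pearson's r of log2(FPKM + 0.1) over the 12 libraries among the 11373 features whose FPKM averaged at least 1. This r is a description without a test, since the points share ages, libraries and depth. Among the features most like FBXO32 were ENSSSCG00000021961 (r = 0.98), KLHL9 (0.98), ENSSSCG00000010676 (0.96) and pig_newGene_2432 (0.96). KLHL9, a substrate adaptor of cullin 3 ligases, had an r of 0.95 for deviations from the age means. Those deviations are part of the r by which KLHL9 was picked, so nothing further is read from them. Its own means spanned only 2.58 to 4.45 FPKM. The features least like FBXO32 (r of -0.96 each) were ENSSSCG00000025928, ENSSSCG00000000374 and ENSSSCG00000013002. For NOS1 the most alike were LIN54 (r = 0.93), LOC102167724 (0.92), NFE2L1 (0.92), FHOD1 (0.92) and DIAPH1 (0.91), and the least alike FOLR2 (-0.96), OBSL1 (-0.95) and NUDT14 (-0.95). DIAPH1 and FHOD1, which are formins that assemble actin filaments, had mean FPKM of 19.0 and 40.5 at 60 d and of 94.2 and 86.9 at 400 d. NFE2L1, a transcription factor for proteasome genes, had a mean of 36.7 FPKM at 60 d and 106.7 at 240 d. The r of FBXO32 with NOS1 was 0.70, rank 1105 among the features for FBXO32 and 775 for NOS1.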

How the data were processed

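LD muscle RNA was extracted with the EZNA Tissue RNA Kit and made into NEBNext Ultra libraries (use of strand not stated), and the authors sequenced them on a HiSeq2500 in paired-end runs. Per the study's methods, the authors removed low quality reads, mapped the rest to Sscrofa10.2 with TopHat2 and estimated expression with Cufflinks. The submitters' processing notes name Bowtie 0.12.2, Cufflinks and a mouse build, but the loci in the files are those of pig chromosomes. The authors deposited whole-number fragment counts, not normalized, and FPKM values. A column of normalized counts and the feature length column (another unit, in bases) were also deposited by the authors. The normalized counts were not used. Counts on a feature can miss reads that map to several places, and FPKM is scaled by library, so both are relative levels.

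Symbols were assigned to 11924 of 22658 features, 11472 by identifier from a newer Ensembl table and 452 from the study's symbol lists. 31 of the 119 listed pathway genes were not found under these symbols. Features averaging at least 10 counts in any age (13314) were fitted with edgeR 4.0.16 (R 4.3.3, TMM factors 0.914 to 1.13, common biological coefficient of variation 0.298), with all 12 libraries in 1 fit. The age effect and the 6 pairs of ages were tested with the quasi-likelihood test. Calls needed a Benjamini-Hochberg adjusted p of 0.01 and, for pairs, an absolute log2 change of 1. DESeq2 1.42.0 and limma 3.58.1, on log2(FPKM + 0.1) and log2(FPKM + 1), were alternatives, as were RLE factors, other count filters, separate fits of 2 ages, omission of each library, an adjusted p of 0.05 and the ages of the published gene lists. Calls of pairs at 0.05 were an alternative chosen after seeing the data, as was the division into early and late libraries. Exact permutation tests were two-sided. Totals per library, 9713813 to 13325327 counts, set the depth, and a floor of 3 counts covers counting error only. The 3 libraries of an age are separate pigs in the study's methods. On simulated counts of 13314 features for 120 d against 400 d, the pair test called 6 of 100 genes with 2-fold and 93 of 100 with 4-fold changes. Every simulated gene had the common coefficient of variation, and the changed genes were drawn from features averaging at least 50 counts. The wider spread of FBXO32 and NOS1 was not simulated, so these shares do not apply to the 2 genes.

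FBXO32 and NOS1, the gene lists and the tests were chosen with earlier results of these data known. The genes named were both members, the listed genes with an age effect at 0.01 (or the 2 smallest p where a list had none), and the 5 most and 3 least alike features per member. Of these, 2 are not reported here. Python 3.11.15 with pandas 2.3.3, numpy 2.4.6, scipy 1.17.1 and matplotlib 3.10.9 was used for the rest. No sequence is shown.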

Additional observations from a re-analysis of the deposited data

How the results depend on the processing

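With the ages of the published gene lists in place of the labels, the log2 changes of FBXO32 became 0.58 (60 d to 120 d), -2.74 (120 d to 240 d), -2.16 (60 d to 240 d), -3.23 (60 d to 400 d) and -3.80 (120 d to 400 d), and those of NOS1 became -3.40 (120 d to 240 d), 1.75 (240 d to 400 d), -2.61 (60 d to 240 d), -0.86 (60 d to 400 d) and -1.66 (120 d to 400 d), because the same groups are then read in another order. Features called then numbered 112, 833, 155 and 0 for 120 d to 240 d, 60 d to 240 d, 60 d to 400 d and 120 d to 400 d. The age effect passed 0.01 in DESeq2 for FBXO32 (adjusted p = 0.000144) and NOS1 (0.00595) and, without a count filter, for FBXO32 (0.00574). Under an adjusted p of 0.05 both age effects passed (0.0127 and 0.0315), and so did the changes of FBXO32 from 120 d to 240 d (3.80), 60 d to 400 d (2.16) and 120 d to 400 d (3.23) and of NOS1 from 60 d to 400 d (2.61). In DESeq2 the FBXO32 changes of 3.78 (120 d to 240 d) and 3.21 (120 d to 400 d) and the NOS1 change of 2.62 (60 d to 400 d) passed 0.01. The NOS1 change from 60 d to 240 d was 2.23 in limma on log2(FPKM + 1). No other alternative turned a direction.

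Features with an age effect numbered 523, against 2686 in DESeq2, 314 and 306 in limma with pseudocounts of 0.1 and 1, and 2639 at 0.05. Pairs from 60 d to 120 d, 120 d to 240 d, 240 d to 400 d, 60 d to 240 d, 60 d to 400 d and 120 d to 400 d gave 0, 0, 0, 112, 833 and 155 features. In DESeq2 these were 17, 524, 24, 681, 1531 and 947. At 0.05 the pairs with calls gave 476, 817, 1889 and 1166. From 120 d to 240 d there were 9 without a filter, 1 with at least 50 counts and 1 in limma with a pseudocount of 1. Limma gave 31 and 59 from 60 d to 240 d and 78 and 68 from 120 d to 400 d with pseudocounts of 0.1 and 1, and 519 from 60 d to 400 d with 1. Separate fits of 2 ages gave 2, 1, 0 and 2 for these 4 pairs, and 244 features were called from 120 d to 400 d without a filter. Members of the 9 lists with an age effect in DESeq2 numbered 1, 5, 5, 4, 3, 2, 3, 3 and 1, in the order in which the lists are described.

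Leaving out each library in turn gave adjusted p for age of 0.00485 to 0.0322 (FBXO32) and 0.00758 to 0.0773 (NOS1), and exact p of 0.000844 to 0.0514 (FBXO32), 0.00312 to 0.0629 (NOS1) and 0.0534 to 0.843 (ratio). The exact p was above 0.05 without library 3 of 120 d for FBXO32 (0.0514) and without library 1 (0.0629) or 2 (0.0536) of 60 d for NOS1. Log2 changes of FBXO32 ran from -1.69 to -0.23 (60 d to 120 d), 3.27 to 4.45 (120 d to 240 d), -0.84 to -0.06 (240 d to 400 d), 2.23 to 3.57 (60 d to 240 d), 1.65 to 2.996 (60 d to 400 d) and 2.91 to 3.88 (120 d to 400 d), and those of NOS1 from 0.32 to 2.38, 1.09 to 3.11, -1.08 to -0.23, 2.87 to 4.04, 2.24 to 3.24 and 0.42 to 2.32. The adjusted p of 120 d to 400 d for FBXO32 was 0.00523 without library 1 of 60 d, and that of 60 d to 400 d for NOS1 was 0.00669 without library 1 of 120 d. The correlation of deviations ran from -0.26 (without library 1 of 60 d, the only change of sign) to 0.77. Features called numbered 80 to 458 for age, 0 to 3 (120 d to 240 d), 3 to 73 (60 d to 240 d), 139 to 830 (60 d to 400 d) and 0 to 335 (120 d to 400 d). On simulated counts for 120 d against 400 d, only 6 of 100 genes with 2-fold changes were called at 0.01. A 2-fold change lies at the call threshold itself, an absolute log2 change of 1, so estimates below it could not be called. Other pairs and thresholds were not simulated. No paired analysis was possible because each age holds different pigs and the sample labels give no replicate numbers that link them.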
